A study of Mus musculus with 5 samples.

Results

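The 10 genes described here encode granule proteins, secreted proteins and surface receptors that are used as markers of neutrophils: S100a8, S100a9, Cxcr2, Csf3r, Retnlg, Ly6g, Camp, Ngp, Lcn2 and Il1r2. They were chosen by name, with earlier results of these data known, and all 10 were found among the 49315 genes of the count table. Poly(A) RNA was sequenced in 2 libraries of isolated lung endothelial cells from mice with a TET2 knockout restricted to endothelium (TET2KO) and in 3 libraries from wild-type (WT) mice. Mice of both groups had received angiotensin II, a vasoconstrictor peptide, by chronic infusion for 28 days, so no library came from an untreated animal. The TET2 enzyme converts methylated cytosines in DNA to oxidised forms. The labels do not give the Cre driver, the exons deleted, the age of the mice or how the cells were isolated. Nor do they say whether each library came from its own animal, so p-values cover only library-to-library spread, which may be partly technical.

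Neutrophils are short-lived granulocytes that mature in the bone marrow and are held in large numbers in the capillaries of the lung. During maturation they fill their granules in steps: azurophil granules first, then specific granules, then gelatinase granules, and most transcripts of granule proteins are lost before the cell enters the blood. Mature cells carry the receptors for granulocyte colony-stimulating factor and for CXC chemokines, and keep calprotectin, the dimer of S100A8 and S100A9, in their cytosol.

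Total counts ran from 27346804 to 35440257 per library. The endothelial markers were detected in every library, with no marker of the list at 0, and so were markers of leukocytes. Summed over the 10 pan-leukocyte markers, the level was 5544 and 5262 CPM (counts scaled to library size, with TMM factors) in TET2KO replicates 1 and 2, and 7169, 8480 and 6684 CPM in WT replicates 1 to 3. The 9 alveolar macrophage markers found in the table summed to 2222 and 4745 CPM in TET2KO and to 4565, 20498 and 1650 CPM in WT. WT replicate 2 thus stood apart by its alveolar macrophage transcripts. It was lowest for the interstitial macrophage markers, which summed to 122 and 172 CPM in TET2KO and to 119, 67.3 and 75.8 CPM in WT. It was also lowest for the endothelial markers, at 4624 and 4620 CPM in TET2KO and at 2724, 2034 and 3532 CPM in WT. The fold changes of S100a8, Cxcr2 and Retnlg, and the medians of the receptor and ligand lists, are given with and without it. Tet2, the targeted gene, was at 139 and 162 CPM in TET2KO and at 141, 174 and 131 CPM in WT. The labels do not give the deleted exons, so these gene-level values are no check of the genotypes. The authors' deposited comparison places WT replicate 3 with the TET2KO libraries, and the files do not settle whether that comparison or the label of WT replicate 3 is in error. The labels were followed, and each value for TET2KO against WT rests on them. Because the libraries are bulk RNA, fewer cells of a type and less RNA per cell cannot be told apart.

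S100a8 and S100a9 lie close together on chromosome 3 of GRCm38. S100a8 (ENSMUSG00000056054) is at chr3:90668978-90670035 on the plus strand, and S100a9 (ENSMUSG00000056071) is at chr3:90692632-90695721 on the minus strand. Retnlg is at chr16:48872621-48874496 and Cxcr2 at chr1:74153989-74161246, both on the plus strand. The sequences of the 250 bases before the RefSeq start of these 4 genes follow, 5′ to 3′ on the strand of the gene, because their levels ran in different directions across the libraries. Capitals mark matches to TTGCNNAA, letters bound by C/EBP factors, or to AGGAAGT, letters bound by PU.1, on either strand. Both are factors of granulocyte development. The gene positions above are GENCODE's, and the printed sequences of S100a8 and Cxcr2 run past the GENCODE start of the gene.
S100a8, chr3:90668821-90669070, plus strand: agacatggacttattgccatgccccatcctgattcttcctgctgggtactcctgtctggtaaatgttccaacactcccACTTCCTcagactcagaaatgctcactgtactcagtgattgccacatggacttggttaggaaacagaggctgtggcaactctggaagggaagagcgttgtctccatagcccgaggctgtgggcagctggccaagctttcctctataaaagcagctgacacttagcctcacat
S100a9, chr3:90695722-90695971, minus strand: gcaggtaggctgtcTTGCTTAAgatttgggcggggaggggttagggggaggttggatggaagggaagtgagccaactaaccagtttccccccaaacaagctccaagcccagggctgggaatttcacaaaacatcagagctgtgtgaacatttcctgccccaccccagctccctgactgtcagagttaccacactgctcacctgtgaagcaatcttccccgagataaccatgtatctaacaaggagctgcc
Cxcr2, chr1:74153744-74153993, plus strand: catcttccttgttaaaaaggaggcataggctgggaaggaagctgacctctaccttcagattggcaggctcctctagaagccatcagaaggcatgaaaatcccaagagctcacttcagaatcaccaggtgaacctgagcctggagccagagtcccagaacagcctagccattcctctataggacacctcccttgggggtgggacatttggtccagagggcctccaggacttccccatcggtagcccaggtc
Retnlg, chr16:48872358-48872607, plus strand: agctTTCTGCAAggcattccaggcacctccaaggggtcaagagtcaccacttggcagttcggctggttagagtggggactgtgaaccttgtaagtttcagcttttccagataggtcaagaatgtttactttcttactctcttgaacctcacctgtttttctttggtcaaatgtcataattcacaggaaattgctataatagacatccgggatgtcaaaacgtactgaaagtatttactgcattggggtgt
The C/EBP letters stood in the windows of S100a9 and Retnlg, the PU.1 letters in that of S100a8, and neither in that of Cxcr2. All 10 genes had a RefSeq promoter, with 11 windows in all since Ly6g has a pair of starts. The C/EBP letters were in 5 of the 11 windows and in 9.56% of all 32851 windows of the same length. The PU.1 letters were in 3 of the 11 and in 7.69% of all. The windows of Ly6g overlap each other and both hold the PU.1 letters, so a single site may be counted for each. The 2 sets of letters do not overlap each other in the windows printed.

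Per length, Retnlg had the highest level of the 10 genes. Its mean over the 5 libraries was 385 TPM, a level scaled by gene length and library total, followed by S100a9 at 63.8, S100a8 at 42.8 and Csf3r at 34.3 TPM. Il1r2 averaged 17.4 TPM, Cxcr2 9.25 TPM, Lcn2 7.03 TPM and Ngp 2.45 TPM, and Camp and Ly6g were lowest at 0.848 and 0.267 TPM. Retnlg was above S100a9, Csf3r above Il1r2, and Camp above Ly6g in 5 of 5 libraries. S100a9 was above S100a8, and Lcn2 above Ngp, in 4 of 5 libraries. The other neighbours changed places: S100a8 was above Csf3r in 2 of 5 libraries, and Il1r2 was above Cxcr2, Cxcr2 above Lcn2 and Ngp above Camp in 3 of 5.

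Together the 10 genes made up a small share of the RNA, which did not separate the groups. Their summed counts were 4982 and 4853 in TET2KO replicates 1 and 2, and 5714, 3157 and 4048 in WT replicates 1 to 3. As a share of all counts this was 0.0159% and 0.0162% in TET2KO, and 0.0209%, 0.00891% and 0.0131% in WT. Both TET2KO shares lay inside the WT range, which WT replicate 1 and WT replicate 2 set. The difference of the mean log2 share was 0.26 (exact two-sided permutation test, p = 0.8). The two-sided p was taken as 2 times the smaller one-sided p, for which 0.2 is the smallest value that 10 splits allow. The difference was -0.04 without WT replicate 2 and 0.57 without WT replicate 1. Retnlg held 58.2% and 20.4% of these counts in TET2KO and 61.0%, 18.1% and 59.2% in WT. The makeup of the sum therefore differed between libraries of the same group.

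No member passed the threshold between TET2KO and WT. Of the 10 genes, 8 passed the filter on low counts, and edgeR's quasi-likelihood test called 0 of them at an adjusted p under 0.05. It called 0.0% of all 18727 genes tested. At an unadjusted p under 0.05 it counted 3 of the 8 (S100a9, Lcn2 and Il1r2), where 5.69% of all tested genes were counted. DESeq2 called 0 of the 8 and 0.395% of the 15456 genes to which it gave an adjusted p. Of the 8 log2 fold changes 5 were above 0 and 3 below, with a median of 0.67, while the median over all tested genes was -0.08. With scaling on the pan-leukocyte markers, or on log2(TPM + 1), 7 of the 8 were above 0, and the median over all genes was then 0.37 and 0.13. The members were picked by name as one group with earlier results of these data known, so these counts and medians are no test of the group. Their values scattered widely: their log2 fold changes ran from -0.84 for Cxcr2 to 2.09 for Ngp.

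**Figure D1:**
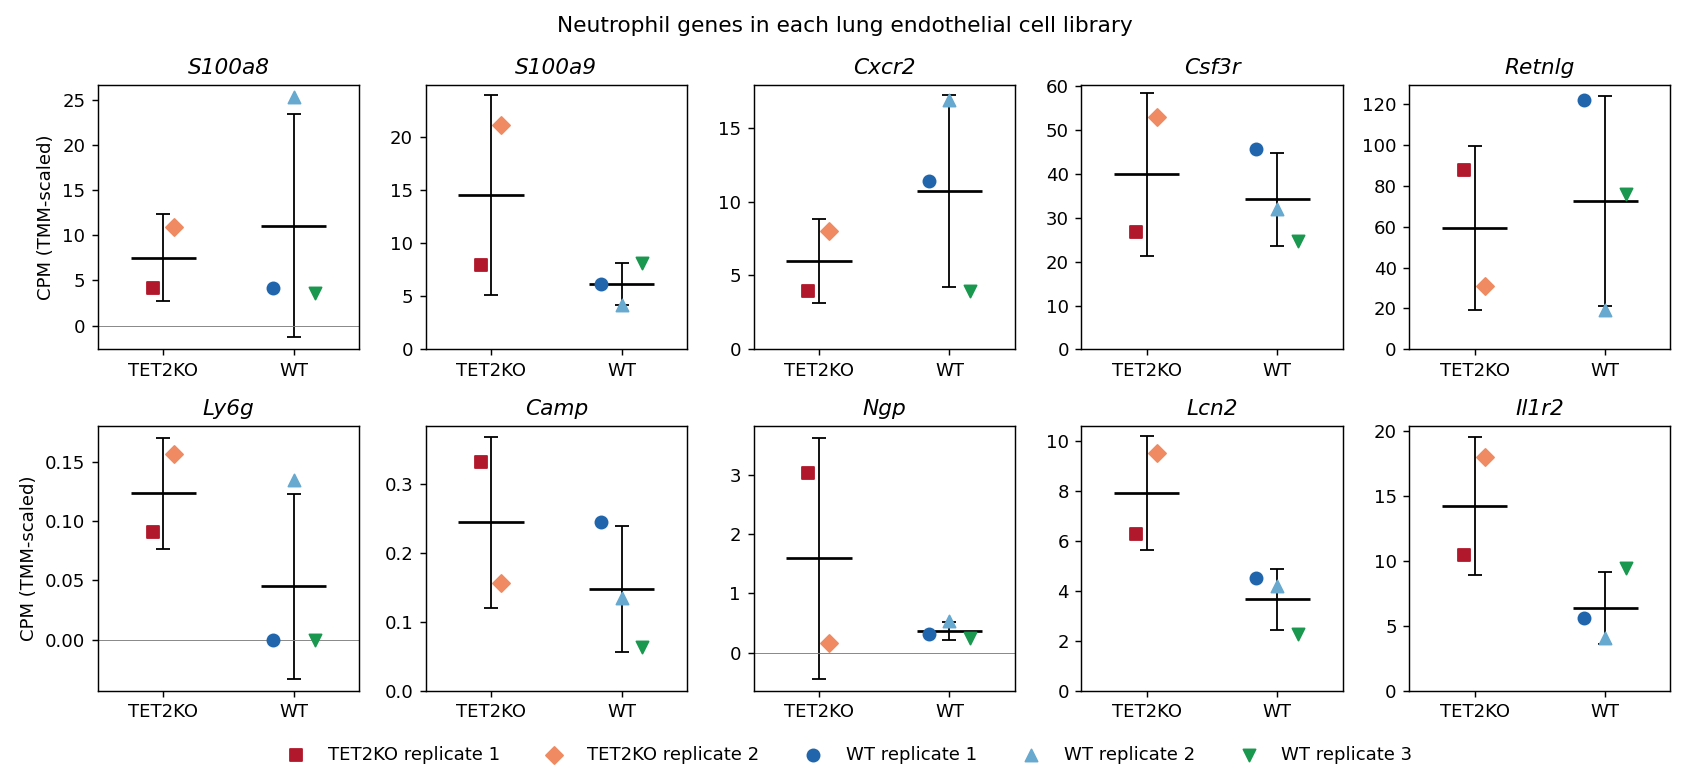
Level of each of the 10 neutrophil genes in CPM (TMM-scaled, linear axis, each panel with its own range), with the TET2KO libraries left of the WT libraries. Points are libraries, bars are group means and whiskers are SD (n = 2 and 3). Lcn2 and Il1r2 are the panels in which both TET2KO points stand above all WT points, and WT replicate 2 is highest for S100a8 and lowest for Retnlg.

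Among the secreted and granule proteins, Lcn2 was higher in both TET2KO libraries than in any WT library. Lcn2 encodes lipocalin 2, an iron-siderophore binding protein of specific granules that epithelial cells also make. It stood at 6.28 and 9.52 CPM in TET2KO replicates 1 and 2, and at 4.52, 4.19 and 2.26 CPM in WT replicates 1 to 3. TET2KO replicate 2 was highest and WT replicate 3 lowest. The mean was 7.90 ± 2.29 CPM in TET2KO and 3.66 ± 1.22 CPM in WT (SD, n = 2 and 3), with a log2 fold change of 1.11 (SE 0.39, edgeR adjusted p = 0.828). Lung epithelial markers summed to 838 and 1722 CPM in TET2KO and to 884, 816 and 416 CPM in WT, with the same highest and lowest library as Lcn2. None of these 8 epithelial markers was at 0 in any library, and their part in the Lcn2 values was not tested.

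The calprotectin genes differed from each other across the libraries. S100a9 was at 7.91 and 21.2 CPM in TET2KO replicates 1 and 2, and at 6.17, 4.16 and 8.17 CPM in WT replicates 1 to 3. TET2KO replicate 2 stood alone at the top, and TET2KO replicate 1 lay just under WT replicate 3, so the groups overlapped. The log2 fold change of S100a9 was 1.24 (SE 0.49, edgeR adjusted p = 0.875), and it was 0.36 without TET2KO replicate 2. S100a8 was at 4.11 and 10.9 CPM in TET2KO, and at 4.20, 25.3 and 3.62 CPM in WT. Here WT replicate 2 was highest, 6.09 times the median of the other 4 libraries, whereas S100a9 was lowest in that library, at 0.517 times that median. The log2 fold change of S100a8 was -0.55 (SE 0.99, edgeR adjusted p = 0.919), but 0.97 without WT replicate 2, 0.04 with pan-leukocyte scaling and 0.08 on log2(TPM + 1).

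The ratio of S100a9 to S100a8 shows the same split. Computed from TPM, it was 2.56 and 2.58 in TET2KO replicates 1 and 2, and 1.95, 0.218 and 3.00 in WT replicates 1 to 3. S100a9 was thus the more abundant transcript in 4 libraries, and S100a8 in WT replicate 2, where the counts were 749 for S100a8 and 123 for S100a9. Alveolar macrophage markers were highest in the same library, by the sums given above, and each of the 9 tested markers of that list had its top value there. Over all tested genes 35.0% were highest and 32.9% lowest in WT replicate 2. The part of alveolar macrophage transcripts in the S100a8 level was not tested.

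Retnlg encodes a resistin-like secreted protein of mouse granulocytes. It was at 87.6 and 31.0 CPM in TET2KO replicates 1 and 2, and at 122, 19.3 and 76.2 CPM in WT replicates 1 to 3. Each group held a low and a high library. The mean was 59.3 ± 40.0 CPM in TET2KO and 72.5 ± 51.5 CPM in WT (SD, n = 2 and 3), which gave a log2 fold change of -0.29 (SE 0.81, edgeR adjusted p = 0.950), but -0.71 without WT replicate 2. It was above 0, at 0.31 and 0.27, when WT replicate 1 or TET2KO replicate 2 was left out, and also with pan-leukocyte scaling, at 0.08, and on log2(TPM + 1), at 0.10. The eosinophil markers summed to 104 and 33.9 CPM in TET2KO and to 137, 25.2 and 69.6 CPM in WT. This sum ranked the 5 libraries in the same order as Retnlg, as did Ccr3 and Alox15 singly, but not the other markers of the list. Of the 6 markers 2 were highest in WT replicate 1, 3 in TET2KO replicate 1 and 1 in WT replicate 3. The part of eosinophil transcripts in the Retnlg values was not tested.

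Camp and Ly6g were at or near the limit of detection. Camp, which encodes the antimicrobial cathelicidin peptide of mice, had 11 and 5 counts in TET2KO replicates 1 and 2, and 7, 4 and 2 counts in WT replicates 1 to 3. Ly6g, the GPI-anchored surface antigen used to sort mouse neutrophils, had 3 and 5 counts in TET2KO, and 0, 4 and 0 counts in WT. The 0 counts of WT replicates 1 and 3 allow levels up to 0.105 and 0.0953 CPM (3 counts, counting error only). TET2KO replicate 1 stood at 0.0906 CPM, under both limits, and TET2KO replicate 2 at 0.157 CPM, above both, with a 95% exact Poisson interval of 0.0508 to 0.365 that spans them. WT replicate 2 was at 0.135 CPM, and no difference in Ly6g between the groups was detectable at this depth. Ly6g lies among related Ly6 genes, whose shared reads could have been dropped or split. Neither gene passed the filter on low counts; with no filter the log2 fold changes were 0.77 (SE 0.78) for Camp and 1.43 (SE 1.37) for Ly6g, each with an edgeR adjusted p of 0.887. Few reads were thus assigned to Ly6g, while Retnlg had at least 570 counts and Csf3r at least 777 counts in every library. Levels of the Ly6g protein and numbers of neutrophils were not measured by these values.

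Ngp, neutrophilic granule protein of the specific granules, was high in a single library. It had 100 and 5 counts in TET2KO replicates 1 and 2, and 9, 16 and 8 counts in WT replicates 1 to 3. In TET2KO replicate 1 this was 3.02 CPM (95% exact Poisson interval 2.46 to 3.67, counting error only), and in WT replicate 2, the next highest, 0.541 CPM (0.309 to 0.878). TET2KO replicate 2 was the lowest of all libraries, at 0.157 CPM. The log2 fold change of 2.09 (SE 1.09, edgeR adjusted p = 0.875) rested on TET2KO replicate 1 and was -1.22 without it.

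Some azurophil granule genes, which neutrophil progenitors transcribe, were also highest in that library. Of the 10 genes of the azurophil and progenitor list 4 were tested, of which 3 (Mpo, Prtn3 and Cebpe) were highest there and 1 (Gfi1) in WT replicate 3. Mpo, which encodes myeloperoxidase, had 151 and 10 counts in TET2KO replicates 1 and 2, and 8, 15 and 3 counts in WT replicates 1 to 3. Elane, neutrophil elastase, had 21 and 6 counts in TET2KO, and 3, 2 and 2 in WT. Prtn3, proteinase 3, had 40 and 21 counts in TET2KO, and 16, 19 and 2 in WT. Epx, the peroxidase of eosinophils, had 137 and 1 counts in TET2KO, and 4, 13 and 5 in WT. Of the 6 eosinophil markers 3 were highest in TET2KO replicate 1, 2 in WT replicate 1 and 1 in WT replicate 3. Mpo, Elane, Prtn3 and Epx were picked with their counts in view. Of the 4 tested azurophil and progenitor genes 0 passed the threshold and 4 had a log2 fold change above 0, with a median of 0.75. Prss57 had at most 3 counts in any library and Bpi had none. Gfi1, a transcriptional repressor of granulocyte development, was at 8.25 and 7.83 CPM in TET2KO and at 4.91, 5.17 and 12.5 CPM in WT.

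Among the receptors, Il1r2 was the second member whose TET2KO values both exceeded every WT value. Il1r2 encodes the decoy receptor that binds interleukin-1 without signalling. It was at 10.5 and 18.0 CPM in TET2KO replicates 1 and 2, and at 5.57, 4.06 and 9.47 CPM in WT replicates 1 to 3. TET2KO replicate 1 and WT replicate 3 were close. The mean was 14.2 ± 5.32 CPM in TET2KO and 6.37 ± 2.79 CPM in WT (SD, n = 2 and 3), which gave a log2 fold change of 1.16 (SE 0.43, edgeR adjusted p = 0.856). Of all tested genes 12.4% had both TET2KO libraries above all WT libraries, and Lcn2 and Il1r2 were 2 of the 8 tested members. No member had both TET2KO libraries below all WT libraries, against 12.4% of all tested genes. Il1r2 (chr1:40074079-40125231, plus strand) overlaps the annotated genes Gm16894 on the opposite strand and Gm37347 on the same strand, and reads from shared stretches cannot be assigned to one of them from these files. Both TET2KO libraries were also above all WT libraries for 10 of 10 endothelial markers and for 5 of 6 interstitial macrophage markers, whose sums are given above. Their part in the Il1r2 and Lcn2 values was not tested.

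Cxcr2 and Csf3r did not separate the groups. Cxcr2, the receptor of the CXC chemokines that draw neutrophils into tissue, was at 3.96 and 7.99 CPM in TET2KO replicates 1 and 2, and at 11.4, 16.8 and 3.94 CPM in WT replicates 1 to 3. WT replicate 3 lay as low as TET2KO replicate 1. The log2 fold change was -0.84 (SE 0.66, edgeR adjusted p = 0.875), and -0.32 without WT replicate 2. Csf3r, the receptor of granulocyte colony-stimulating factor, was at 26.7 and 53.0 CPM in TET2KO, and at 45.7, 32.1 and 24.7 CPM in WT. It varied least of the 8 tested members, 2.15 times between the highest and the lowest library. Its log2 fold change was 0.22 (SE 0.39, edgeR adjusted p = 0.917), and -0.35 without TET2KO replicate 2. The ratio of Il1r2 to Cxcr2, from TPM, was 4.22 and 3.60 in TET2KO, and 0.784, 0.385 and 3.84 in WT, so WT replicate 3 had a ratio between those of the TET2KO libraries.

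**Figure D2:**
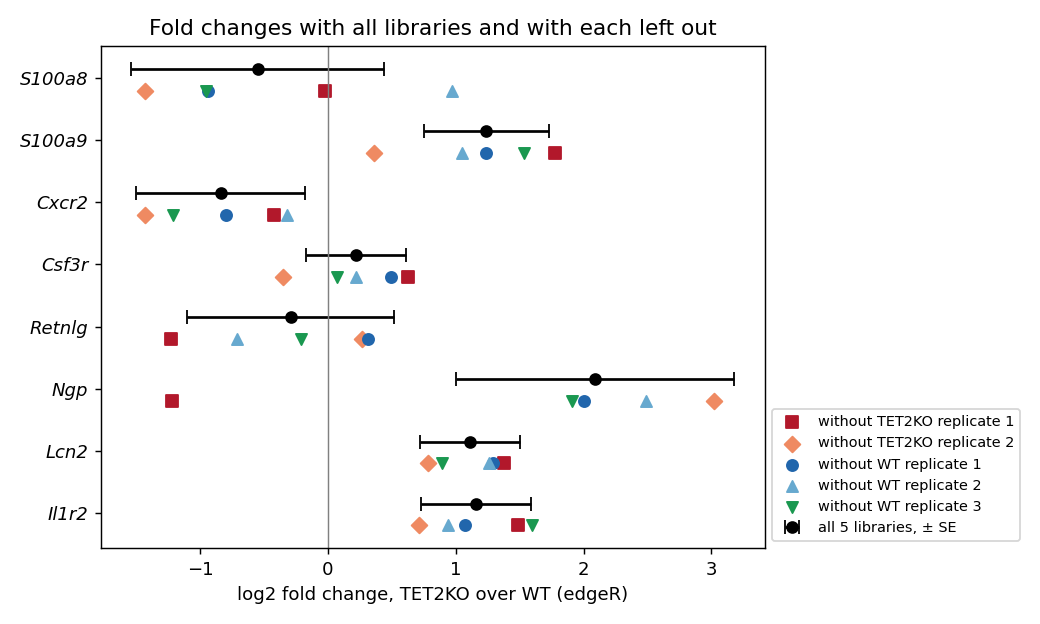
log2 fold change of TET2KO over WT for the 8 tested members by edgeR; black points with whiskers are the estimate from all 5 libraries ± SE, and coloured points are estimates with 1 library left out. S100a9, Cxcr2, Lcn2 and Il1r2 keep their sign in all 5 cases, while S100a8 runs from -1.43 to 0.97 and Ngp from -1.22 to 3.02.

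The members did not vary as one group across the libraries. Of the 8 tested members 4 were highest in TET2KO replicate 2 (S100a9, Csf3r, Lcn2 and Il1r2), 2 in WT replicate 2 (S100a8 and Cxcr2), 1 in WT replicate 1 (Retnlg) and 1 in TET2KO replicate 1 (Ngp). The lows were spread too, with 4 members lowest in WT replicate 3, 3 in WT replicate 2 and 1 in TET2KO replicate 2. Likeness was measured as the root mean square difference between log2 CPM values, each centred on the gene's mean over the 5 libraries. The most alike pair was S100a9 and Il1r2 at 0.23, followed by Csf3r and Lcn2 at 0.51. S100a8 was 0.71 from Cxcr2 and 1.41 from S100a9, its partner in calprotectin. S100a8 and Retnlg were the least alike pair at 2.05.

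**Figure D3:**
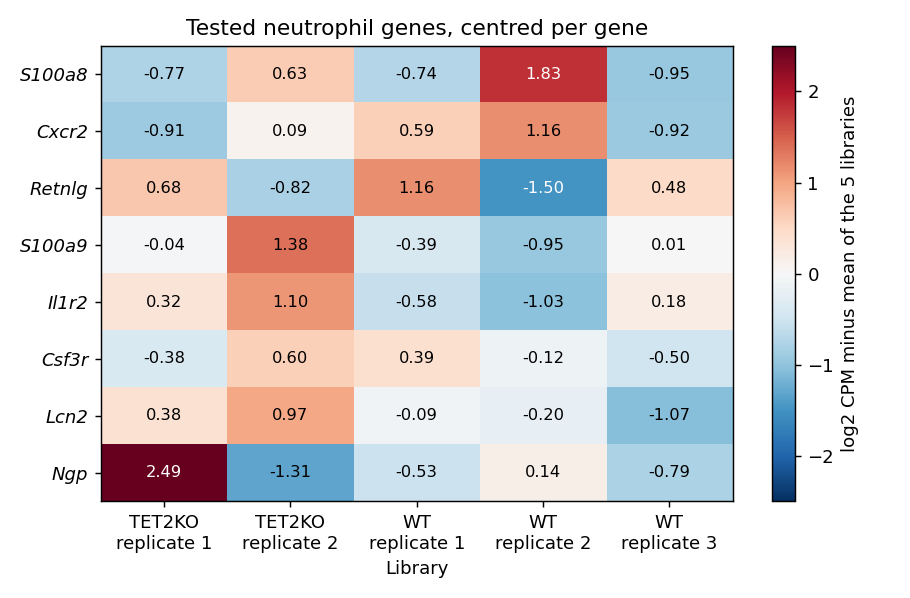
log2 CPM of the 8 tested members minus each gene's mean over the 5 libraries, with genes in rows and libraries in columns (TET2KO left, WT right). S100a8 and Cxcr2 are highest and Retnlg, S100a9 and Il1r2 lowest in WT replicate 2, and Ngp is high in TET2KO replicate 1 alone.

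Genes outside the 10 that varied most like single members were found by the same measure among 10263 genes, and were looked for after the values had been seen. Closest to S100a8 were Olr1, a scavenger receptor of oxidised lipoprotein, at 0.10, and the chemokine receptor Ccr1 at 0.15. Olr1 was at 104 and 239 CPM in TET2KO replicates 1 and 2, and at 113, 632 and 83.8 CPM in WT replicates 1 to 3. Closest to Retnlg were F5, coagulation factor V, at 0.10, and with a wide gap Padi4, the peptidylarginine deiminase of granulocytes, at 0.32. F5 was at 68.9 and 26.3 CPM in TET2KO and at 96.3, 16.1 and 53.6 CPM in WT. Closest to Il1r2 was Cd163, the haemoglobin scavenger receptor of macrophages, at 0.13, and it was second closest to S100a9 at 0.23. Cd163 was at 23.9 and 39.7 CPM in TET2KO, and at 12.6, 9.46 and 17.2 CPM in WT. Closest to Cxcr2 was Gm5150 at 0.10, closest to Csf3r the myeloid receptor Cd300e at 0.15, and closest to Lcn2 the glypican Gpc3 at 0.11. Ngp had no close match, with 1.03 for the nearest gene, Plxna2.

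The median profile of the tested members was flatter than most of their own profiles. The 8 genes nearest to it were Sult1a1, Akap5, Pdia5, Pls3, C130074G19Rik, Spred1, Fmnl2 and Ick, at 0.096 to 0.15. Sult1a1, a sulfotransferase, was at 10.4 and 12.8 CPM in TET2KO replicates 1 and 2, and at 6.97, 7.33 and 5.69 CPM in WT replicates 1 to 3.

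Other genes of specific and gelatinase granules had values in both directions. Of 12 genes in this list 11 were tested, 6 with a log2 fold change above 0 and 5 below, with 0 past the threshold and a median of 0.08. Ltf, lactoferrin of the specific granules, was at 4.89 and 6.45 CPM in TET2KO replicates 1 and 2, and at 2.91, 2.16 and 4.23 CPM in WT replicates 1 to 3. Its log2 fold change was 0.87 (SE 0.36, edgeR adjusted p = 0.875), and the groups did not overlap. Itgb2l, an integrin-like gene chosen after its values were seen, had 13 and 11 counts in TET2KO and 1, 4 and 1 counts in WT. In the 5 companion lists of neutrophil genes 0 passed the threshold by edgeR or DESeq2, and at an unadjusted p under 0.05 edgeR counted 2 of 45 tested genes (Mpo and Itgb2l), where 5.69% of all tested genes were counted. Itgb2l passed the filter on low counts only through the TET2KO libraries, in which it was higher, so its p is no fair test. Mpo was high in TET2KO replicate 1 alone, at 151 counts, and its groups overlapped. Hp, haptoglobin, was at 19.0 and 48.5 CPM in TET2KO and at 21.1, 21.6 and 15.1 CPM in WT. Wfdc21 and Slpi, genes of the WAP domain family, were highest in WT replicate 2. Wfdc21 was at 8.94 and 11.6 CPM in TET2KO and at 11.9, 91.0 and 6.51 CPM in WT, and Slpi, a protease inhibitor, was at 50.1 and 55.3 CPM in TET2KO and at 68.8, 258 and 30.2 CPM in WT. Of the 11 tested genes 3 were highest and 5 lowest in that library.

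Neutrophil receptors were mostly highest in WT replicate 2. Of the 16 receptor genes 14 were tested, 3 with a log2 fold change above 0 and 11 below, with 0 past the threshold and a median of -0.35. Without WT replicate 2 the median was 0.27, with 12 above 0 and 2 below, so that the direction of the list rested on that library. Of the 14, 10 were highest in WT replicate 2, where 35.0% of all tested genes were. Cxcr1, a chemokine receptor related to Cxcr2, was at 2.42 and 4.48 CPM in TET2KO replicates 1 and 2, and at 4.56, 71.1 and 2.35 CPM in WT replicates 1 to 3. WT replicate 2 was 20.6 times the median of the other libraries. Fpr1, the receptor of formylated bacterial peptides, was at 32.5 and 68.4 CPM in TET2KO and at 65.1, 229 and 29.5 CPM in WT. Cxcr4, which holds neutrophils in the marrow and is also carried by lymphocytes, was at 385 and 360 CPM in TET2KO and at 499, 355 and 585 CPM in WT. Ltb4r1, the leukotriene B4 receptor, was at 6.49 and 7.49 CPM in TET2KO and at 6.97, 4.19 and 5.02 CPM in WT.

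**Figure D4:**
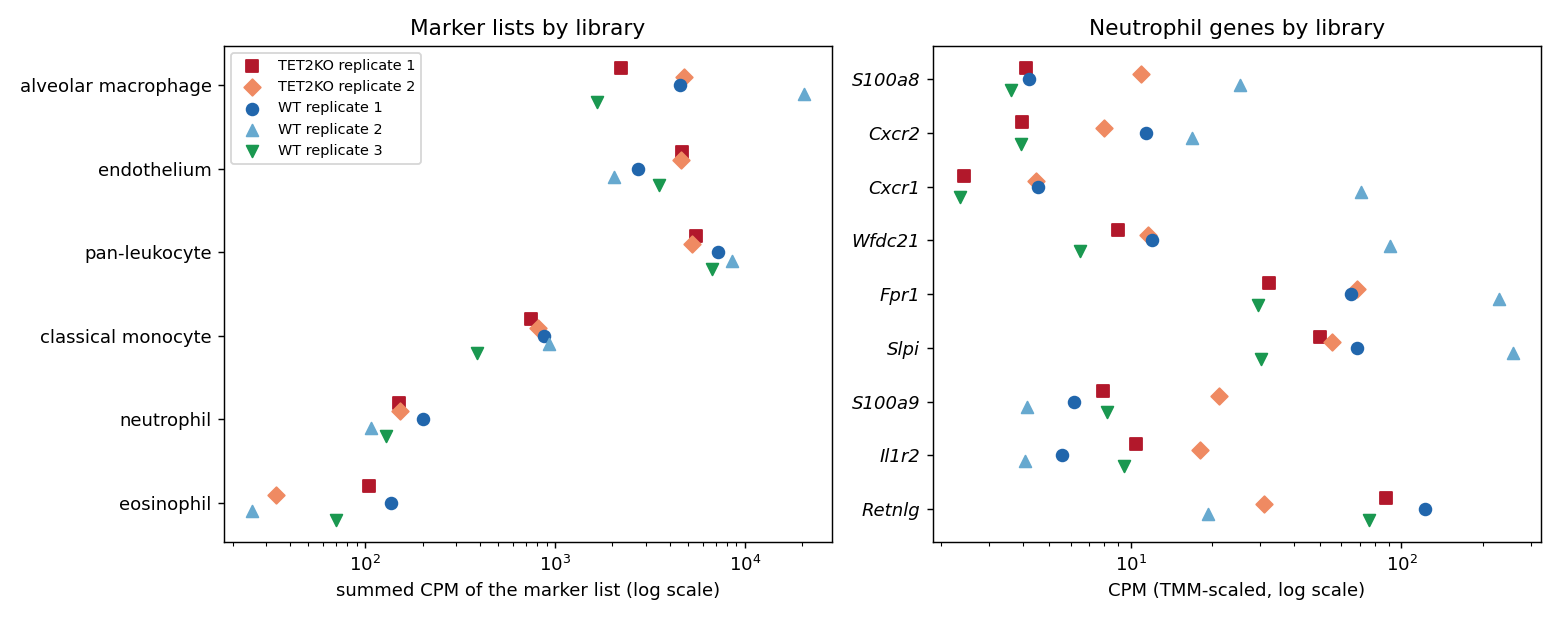
Left, summed CPM of marker lists of 6 cell types, and right, CPM of single neutrophil genes (log axes), with 1 point per library and TET2KO points drawn above WT points in each row. Alveolar macrophage markers and S100a8, Cxcr2, Cxcr1, Wfdc21, Fpr1 and Slpi are highest in WT replicate 2, while S100a9, Il1r2 and Retnlg are lowest there.

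Transcripts of mature neutrophils and the ligands of the receptors showed no difference past the threshold. Of 14 stefin and other mature neutrophil genes 8 were tested, 7 with a log2 fold change above 0 and 1 below, with 0 past the threshold and a median of 0.40. Hdc, histidine decarboxylase, was at 86.9 and 79.2 CPM in TET2KO replicates 1 and 2, and at 65.5, 33.5 and 79.9 CPM in WT replicates 1 to 3. Acod1, which makes itaconate, was at 64.1 and 40.2 CPM in TET2KO and at 23.5, 21.6 and 59.2 CPM in WT. Slfn4, a myeloid schlafen gene, was at 4.23 and 7.52 CPM in TET2KO and at 4.20, 5.51 and 2.89 CPM in WT. Msrb1, a methionine sulfoxide reductase, was at 79.8 and 117 CPM in TET2KO and at 125, 336 and 59.4 CPM in WT. Stfa2 had no count in any library.

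Of 9 ligand and cytokine genes 8 were tested, 4 with a log2 fold change above 0 and 4 below, with 0 past the threshold and a median of -0.02. Without WT replicate 2 the median was 0.79, with 7 above 0 and 1 below. Il1b, a ligand that the Il1r2 protein binds, was at 187 and 300 CPM in TET2KO replicates 1 and 2, and at 129, 657 and 165 CPM in WT replicates 1 to 3. Il1a, the other interleukin-1 agonist, was at 106 and 241 CPM in TET2KO and at 39.2, 510 and 132 CPM in WT. Il1rn, the interleukin-1 receptor antagonist, was at 63.2 and 116 CPM in TET2KO and at 43.0, 208 and 59.0 CPM in WT. All 3 were highest in WT replicate 2, the library in which Il1r2 was lowest. Cxcl3, a ligand of Cxcr2, was at 8.94 and 15.6 CPM in TET2KO and at 3.40, 8.11 and 11.0 CPM in WT.

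The 13 marker lists of endothelium and of other cells that a lung isolate could hold had 91 tested genes. Of these, 0 passed the threshold by edgeR or DESeq2. At an unadjusted p under 0.05 edgeR counted 16, where 5.69% of all tested genes were counted. Of the 16, 5 were of the endothelial list, 4 of the interstitial macrophage list and 3 of the lung epithelium list. Ace of the non-classical monocyte list and Gata2 of the basophil and mast cell list were also among them. Which cells the transcripts of Ace and Gata2 came from was not tested. The median log2 fold changes of the lists were 0.73 for endothelium, 0.97 for lung epithelium, 0.81 for interstitial macrophages, 0.26 for classical and 0.16 for non-classical monocytes. They were 0.25 for eosinophils, 0.17 for basophils and mast cells, 0.28 for platelets and -0.05 for T and NK cells. They were -0.37 for pan-leukocyte markers, -0.38 for B cells, -0.47 for erythroid cells and -0.93 for alveolar macrophages. Monocytes also transcribe S100a8 and S100a9, and the classical monocyte markers summed to 742 and 809 CPM in TET2KO replicates 1 and 2, and to 873, 929 and 387 CPM in WT replicates 1 to 3. Their part in the calprotectin levels was not tested.

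The authors' deposited table lists 8 of the 10 genes and gives Il1r2 alone of them an adjusted p under 0.05, at 0.0324 with a log2 fold change of 1.42. In the authors' deposited table that fold change equals the mean of both TET2KO libraries and WT replicate 3 over the mean of WT replicates 1 and 2. The normalized values of Il1r2 in the authors' deposited table were 325 and 571 in TET2KO, and 172, 126 and 296 in WT. For Cxcr2 the authors' deposited table gives -1.39 on the same split, with an adjusted p of 0.0609. Over all genes that could be compared, 99.99% of the log2 fold changes in the authors' deposited table matched this split within 0.01. That split does not follow the genotype labels, so its p-values are not a test of TET2KO against WT as labelled. Should the label of WT replicate 3 be the one in error, the values for both groups above would change. With WT replicate 3 left out, 8 of 8 tested members kept the sign of their log2 fold change. In that fit 0 of them passed the threshold, and 0 of all 18430 genes tested. Leaving the library out does not show the values with it counted as TET2KO. On the authors' split Csf3r was at -0.14, against 0.22 by the labels and edgeR, and Lcn2 at 0.49 against 1.11. S100a8 (-1.22), S100a9 (1.29), Retnlg (-0.11), Ngp (1.43), Lcn2, Cxcr2 and Il1r2 had the same sign on both splits.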

How the data were processed

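Poly(A) RNA was sequenced from 3 WT and 2 TET2KO lung endothelial cell isolates, as paired reads of 150 bp per the labels' protocols. Trimmomatic 0.36, STAR 2.5.2b, featureCounts of Subread 1.5.2, DESeq2 and the build GRCm38 are named in the submitters' processing notes. Whether counting used strand is not stated in these sources.

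The deposited values are raw read counts for each gene (whole numbers), TPM values (scaled for length and depth) and a comparison table with log2 fold changes, p-values and a size-factor normalized signal per library. Per the file headers that table does not name its groups. Its log2 fold change equalled, within 0.01, the ratio of both TET2KO libraries plus WT replicate 3 over WT replicates 1 and 2 in 18016 of 18018 genes, so it does not follow the genotype labels and is not used as a test of them.

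Counts were fitted in R 4.3.3 with edgeR 4.0.16, using filterByExpr, TMM factors, a genotype term and the quasi-likelihood F test, with Benjamini-Hochberg adjustment over 18727 genes and a threshold of 0.05. Standard errors were derived from the fold change and its F statistic. TMM-scaled totals gave CPM, and log2 CPM had a prior count of 2. Alternatives were DESeq2 1.42.0, limma-voom and limma 3.58.1 on log2(TPM + 1) or log2(TPM + 0.1), other scalings and filters, each library left out, and the replicate number as a block. The tests were checked on simulated counts. Each set of 3 and 2 libraries allows 10 splits. The exact two-sided permutation p was taken as 2 times the smaller one-sided p, so it could not go below 0.2.

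The 10 genes, the 5 companion lists of neutrophil genes and the 13 marker lists of endothelium and other cells were chosen with earlier results of these data known. Named were the 10 genes, up to 4 tested genes per companion list, taken by smallest p among those whose mean log2 CPM reached 1, and the 8 genes nearest to the median profile of the tested members. Any further gene was chosen with its values in view. Leaving out Retnlg from the summed share, and WT replicate 2 from the companion lists, was chosen after seeing the data. Promoter sequences are RefSeq's (GRCm38.p6) and gene positions GENCODE's (GRCm38).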

Additional observations from a re-analysis of the deposited data

How the results depend on the processing

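The number of members past the threshold was 0 under each of the 15 alternatives tried, and the adjusted p of no member came under 0.05. At an unadjusted p under 0.05 the number was 3 of 8 in the main edgeR test, where 5.69% of all tested genes were counted. The share of all genes at that p was not computed for the alternatives, so their counts are not given. Of 119 recomputed log2 fold changes of members, 106 kept their sign and 13 did not; those of S100a9, Cxcr2, Lcn2 and Il1r2 kept it throughout. With one library left out the log2 fold change ran from -1.43 to 0.97 for S100a8, from 0.36 to 1.78 for S100a9, from -1.43 to -0.32 for Cxcr2, from -0.35 to 0.63 for Csf3r, from -1.23 to 0.31 for Retnlg, from -1.22 to 3.02 for Ngp, from 0.78 to 1.38 for Lcn2 and from 0.71 to 1.60 for Il1r2. Where 1 TET2KO library remained it was assumed to vary like the WT libraries. Scaling on the summed pan-leukocyte markers moved the median of all genes from -0.08 to 0.37 on the log2 scale; S100a8 then stood at 0.04 and Retnlg at 0.08. On log2(TPM + 1) S100a8 was 0.08 and Retnlg 0.10, on log2(TPM + 0.1) 0.09 and 0.10, with a median of all genes of 0.13 and 0.17. The median of the tested members, 0.67, became 1.13 with pan-leukocyte scaling, 0.96 over all 10 members with no filter and 0.24 over the 7 members with at least 1 CPM in 2 libraries, and ran from 0.31 to 0.96 with one library left out. The difference of the log2 summed share, 0.26, ran from -0.04 to 0.57 with one library left out, and was 0.57 as a share of pan-leukocyte counts, 0.25 without S100a8 and S100a9, 0.44 without Retnlg and 0.26 on summed TPM. Without WT replicate 2, an alternative chosen after seeing the data for these lists, the median of the receptor list was 0.27 against -0.35 with all libraries, and that of the ligand list 0.79 against -0.02, and the other 3 companion lists kept their sign. The cause of these shifts was not tested. DESeq2 called 61 genes and edgeR 0 over the whole table.

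With the replicate number as a block 0 members passed. Csf3r was then -0.02, Retnlg 0.09 and the median 0.46. WT replicate 3 has no TET2KO library of its number, so these fold changes rested on replicates 1 and 2 of each group. Deviations from the group means correlated at 0.22 for replicate 1 and 0.49 for replicate 2, with only 2 shared numbers. The deviations of the 2 TET2KO libraries mirror each other, so these correlations are not separate checks of pairing. The replicate numbers are therefore not taken to pair the libraries. Depth limits Ly6g and Camp, which had at most 5 and 11 counts per library.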
